A study of Homo sapiens with 8 samples.

Results

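The active chromatin of A549 cells that had received control siRNA comprised 23154 genomic regions carrying histone H3 acetylated at lysine 27 (H3K27ac). They were found by merging the peaks of the 3 control siRNA lists wherever peaks overlapped by at least 1 bp, which gave 43716 regions, and by keeping the 53.0% with a peak in every list. Each region was given a strength, the mean over the 3 lists of the percentile that its highest fold enrichment held within that list, and a width, the span of its merged peaks. A549 is a human lung adenocarcinoma line with mutated KEAP1, in which the transcription factor NRF2 is persistently active. All 3 libraries came from A549 cells transfected with control siRNA and harvested 48 h later. The series has 6 peak lists, and the other 3 were not analysed here. The cells are 1 tumour line. The study describes its libraries as biological replicates from independent experiments, and the spread given here is that between the 3 control siRNA libraries.

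H3K27ac is placed on nucleosomes by the acetyltransferases p300 and CBP and marks promoters and enhancers in use. It separates an active enhancer from one that is only primed, and it is wide and strong across the clusters of enhancers found near cell identity genes. H3K27ac at a gene does not by itself measure the gene's transcript.

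Reference sequence of a few strong regions is shown because the lists give intervals without the bases under them. For 3 of the 4 strongest regions, those without any annotated transcript start, the 150 bases with the most matches to a pair of short motifs are given on hg19. Capitals mark TGANTCA, the core bound by AP-1 factors such as FOSL1 and JUN, or TGACNNNGC, the core of the element that NRF2 binds with a small MAF protein. Both strands were read, and matches of the pair can overlap.
Strongest region of all, chr11:56673512-56673661, plus strand: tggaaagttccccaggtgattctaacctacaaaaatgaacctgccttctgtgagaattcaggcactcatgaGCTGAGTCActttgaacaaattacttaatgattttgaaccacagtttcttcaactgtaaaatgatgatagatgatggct
Region in an ALDH1A1 intron, chr9:75592727-75592876, plus strand: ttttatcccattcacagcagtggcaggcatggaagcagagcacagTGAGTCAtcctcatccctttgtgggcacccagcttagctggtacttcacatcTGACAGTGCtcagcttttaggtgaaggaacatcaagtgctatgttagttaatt
Region in AKR1C8, chr10:5193174-5193323, plus strand: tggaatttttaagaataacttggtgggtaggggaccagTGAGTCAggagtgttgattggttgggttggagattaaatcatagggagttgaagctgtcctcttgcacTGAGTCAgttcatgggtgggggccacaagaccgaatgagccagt
In the first window both motifs matched the same stretch, whereas the ALDH1A1 window held them apart and the AKR1C8 window held 2 AP-1 matches. A match is a description of letters and does not show binding.

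Promoters are shown for comparison, since promoters in strong regions differed in their number of CpG. Each runs from 250 bases before to 50 after the start of the canonical transcript, along the gene on hg19, with every CpG in capitals. The ABCC2 start lay in the second strongest region, that of RPL4 lay in the strongest region of any ribosomal protein gene, and those of NKX2-1 and SFTPA1 lay in no peak of any list.
ABCC2 promoter, chr10:101542147-101542446, plus strand: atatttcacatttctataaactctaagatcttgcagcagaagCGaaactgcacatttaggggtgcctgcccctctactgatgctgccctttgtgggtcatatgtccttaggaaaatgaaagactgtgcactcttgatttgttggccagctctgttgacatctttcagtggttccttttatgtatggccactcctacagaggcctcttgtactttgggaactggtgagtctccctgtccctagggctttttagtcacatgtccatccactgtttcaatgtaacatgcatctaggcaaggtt
RPL4 promoter, chr15:66797144-66797443, minus strand: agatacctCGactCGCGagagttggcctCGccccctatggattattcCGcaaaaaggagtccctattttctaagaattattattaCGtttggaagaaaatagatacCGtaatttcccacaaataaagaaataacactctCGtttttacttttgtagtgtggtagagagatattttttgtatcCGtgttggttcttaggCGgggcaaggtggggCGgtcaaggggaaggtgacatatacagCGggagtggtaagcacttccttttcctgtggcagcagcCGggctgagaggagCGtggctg
NKX2-1 promoter, chr14:36989388-36989687, minus strand: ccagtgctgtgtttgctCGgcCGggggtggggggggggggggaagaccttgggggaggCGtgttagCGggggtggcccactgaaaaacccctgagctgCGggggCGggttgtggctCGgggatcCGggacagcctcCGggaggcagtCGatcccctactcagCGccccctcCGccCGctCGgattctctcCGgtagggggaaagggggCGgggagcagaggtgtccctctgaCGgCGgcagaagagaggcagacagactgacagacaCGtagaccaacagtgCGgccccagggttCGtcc
SFTPA1 promoter, chr10:81370445-81370744, plus strand: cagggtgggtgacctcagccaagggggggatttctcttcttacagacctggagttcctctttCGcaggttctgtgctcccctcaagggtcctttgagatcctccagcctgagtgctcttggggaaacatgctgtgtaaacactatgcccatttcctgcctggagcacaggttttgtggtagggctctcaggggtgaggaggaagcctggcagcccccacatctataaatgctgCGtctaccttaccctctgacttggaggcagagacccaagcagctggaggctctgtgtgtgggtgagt
The ABCC2 promoter had 1 CpG, while that of NKX2-1, without a peak, had 21. RPL4 had 14 CpG and SFTPA1 2. These 4 were chosen with their calls known.

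The 3 lists held 27941, 34747 and 41571 peaks in replicates 1, 2 and 3 and covered 64.7, 84.9 and 113 Mb, or 87.6 ± 24.4 Mb (SD, n = 3). Peak names set replicate 1 apart, since they lack the flow cell identifier that every peak name of replicates 2 and 3 carries. The 23154 shared regions covered 97.7 Mb, or 3.15% of the chromosomes, at a median width of 2648 bp. Their median strength was 62.8, against 28.0 for the 9003 regions called in 2 lists and 14.4 for the 11559 called in 1. Of the 9003, 7805 were missing from replicate 1. Spearman's rho of the fold between libraries was 0.919 for replicates 2 and 3, 0.829 for 1 and 2 and 0.810 for 1 and 3 over the 23154 regions, a description, since regions share their libraries. The lists hold no read counts. By the study's notes replicate 1, with the shortest list, was sequenced far less deeply than the others and replicate 3 the most, so depth moved with list length, and its part in the differences between the lists was not tested. The part of DNA copy number in the folds was not tested.

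**Figure D1:**
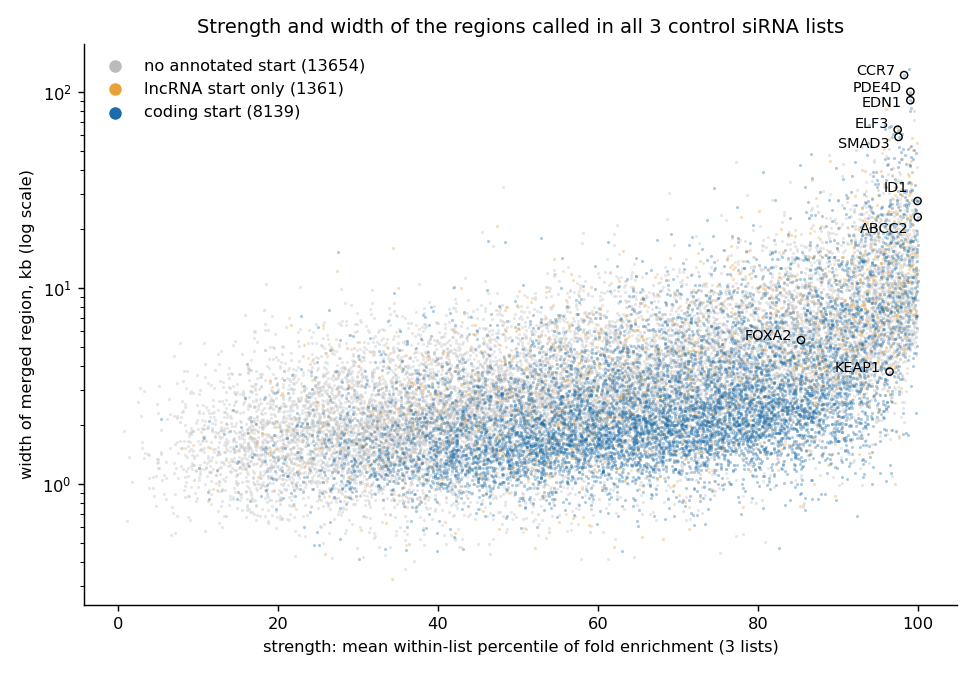
Strength (x axis, mean within-list percentile of fold enrichment over 3 lists) against width (y axis, kb, log scale) of the 23154 regions called in all 3 control siRNA lists, coloured by the annotated start they hold. Named regions hold a start of that gene, and the widest ones at CCR7, PDE4D and EDN1 lie to the left of the stronger and narrower ABCC2 and ID1.

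The strongest region of all, chr11:56669574-56680396, was intergenic and 10.8 kb wide, 76.0 kb from the nearest coding start, that of the olfactory receptor gene OR5AK2. It had 26.2, 30.2 and 33.04-fold enrichment in replicates 1, 2 and 3. ABCC2, a pump that exports conjugated drugs and bilirubin, came second at chr10:101533344-101556319 with 24.4, 28.4 and 33.01-fold. An intronic region of ALDH1A1, which makes retinoic acid from retinal, ranked 3 with 22.5, 29.99 and 37.2-fold. Replicate 3 had the highest fold and replicate 1 the lowest in each of the 20 strongest regions, and strength averages percentiles rather than folds.

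Aldehyde dehydrogenase and aldo-keto reductase genes held 4 of the 10 strongest regions. AKR1C8, of the aldo-keto reductase cluster on chromosome 10, ranked 4, over an exon and without a start, with 22.8, 23.5 and 27.4-fold. ALDH3A1, which oxidises aromatic and fatty aldehydes, was sixth with 21.1, 23.8 and 27.7-fold. ALDH3B1 shared rank 10 with UNC93B1, a carrier of Toll-like receptors, with 20.01, 23.1 and 27.6-fold.

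ID1, an inhibitor of basic helix-loop-helix factors, was seventh with 21.3, 23.2 and 26.96-fold over 27.7 kb. RPH3AL, which acts in exocytosis, was eighth with 20.6, 22.6 and 30.3-fold. Further down, S100A2, a calcium-binding protein of epithelia, had 19.2, 20.5 and 26.9-fold. KRT86, a keratin gene, MALL, a membrane protein of epithelia, and SRC, the tyrosine kinase, also had their starts among the 20 strongest, with 18.97, 20.2 and 26.7-fold for SRC.

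Of the 20 strongest regions 10 held no annotated start, and 1 held only that of the lncRNA gene GASAL1. Those without a start lay in ALDH1A1, AKR1C8, VMP1, KCNK3, a potassium channel gene, and ABHD12, a lipid hydrolase gene, or between genes. The intergenic ones were nearest to OR5AK2, MTAP, TMEM17, ZNF217 and FAT3. The most remote of them, chr11:91124214-91133745, lay 824 kb from the FAT3 start and still had 18.8, 21.5 and 26.3-fold.

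**Figure D2:**
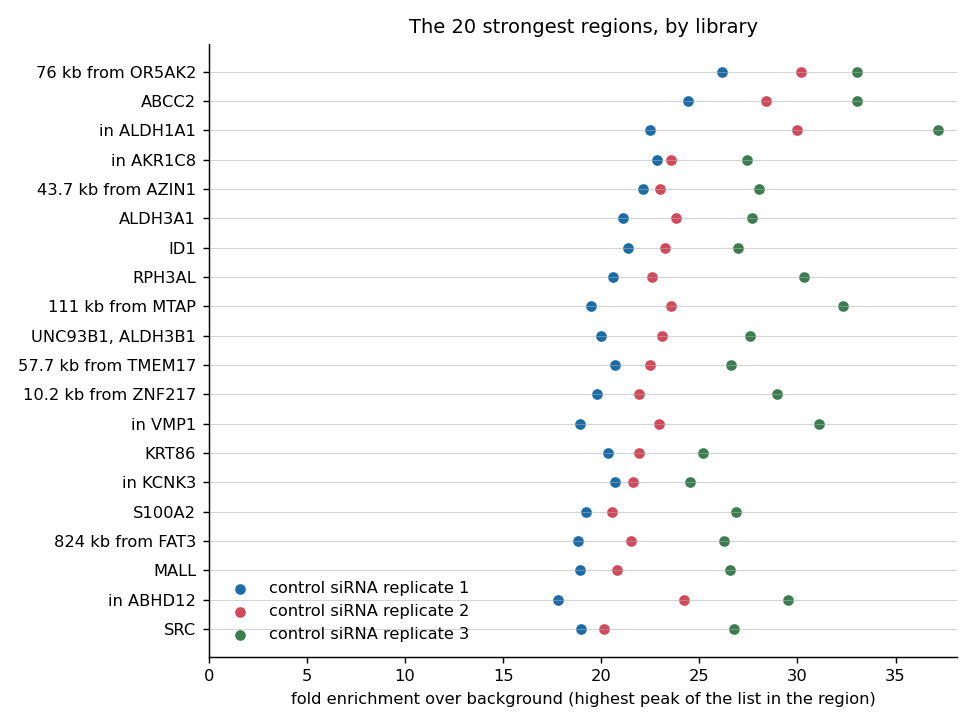
Fold enrichment (x axis, highest peak of a list in the region) of the 20 strongest regions in each of the 3 control siRNA libraries, with the strongest at the top. Labels name the gene whose coding start the region holds, the gene it lies in or the nearest coding start, and replicate 3 is rightmost throughout, reaching 37.2-fold in ALDH1A1.

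Width ranked the regions in a different order. The 20 strongest and the 20 widest regions shared 0 members, although ALDH1A1 and VMP1 each held separate regions in both top 20s. The top 1% by each measure, 231 regions, shared 32. The widest 1% had a median strength of 96.5, beside 62.8 over all shared regions. Across all 23154 regions strength and width had a Spearman's rho of 0.554, a description. PDE4D, which codes for a phosphodiesterase that breaks down cyclic AMP, held the widest region, chr5:58312246-58442497, at 130 kb, and the region ranked 3 by width, at 100 kb. The peaks of replicates 1, 2 and 3 covered 104, 119 and 130 kb of the widest, with 12.4, 17.1 and 18.3-fold enrichment. PDE4D also held more regions than any other coding gene, 29 along 1553 kb, ahead of PARD3 with 23 and RAD51B with 21. The 1-Mb bin chr5:58000001-59000000, which holds part of PDE4D, was 46.2% covered, more than any other bin.

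The second widest region spanned IGFBP4, which codes for a binding protein of insulin-like growth factors, TNS4, a focal adhesion adaptor, and CCR7, a chemokine receptor, over 122 kb. Its own peaks covered 82.9, 109 and 122 kb in the 3 libraries. EDN1, the gene of the vasoconstrictor endothelin-1, followed with 90.7 kb and 14.4, 15.1 and 18.5-fold. TNS3, another tensin, had 88.3 kb. CYP24A1, which inactivates vitamin D, had 83.3 kb, covered evenly by 81.2, 81.7 and 83.2 kb. LIF, a cytokine of the interleukin-6 family, had 79.6 kb, covered by 75.9, 78.2 and 79.2 kb.

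CLDN2, a tight junction claudin, shared 68.1 kb with RIPPLY1, and replicate 1 covered the least of it, with 33.2, 61.4 and 66.4 kb in the 3 libraries. A second ALDH1A1 region, over its start, was 66.8 kb wide. ELF3, an epithelial ETS factor, had 64.2 kb. SMAD3, which carries the TGF-β signal to the nucleus, was twentieth at 58.9 kb with 12.52, 11.9 and 15.8-fold. Other members of the 20 widest lay at MYO1E, AOPEP, VMP1, ANXA4, MID1, EVA1C and ASPH and near SLC45A1.

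The widest region without any start lay in VMP1, next to that of MIR21, at 72.2 kb. Others of this kind, of 43.0 to 52.6 kb, lay in ERGIC1, AOPEP, DNAJB12, THSD7A, PRAG1, PDE4D and FGL1, or between genes. The intergenic ones had their nearest coding starts at DUSP4, 282 kb away, and AREGB, 44.4 kb away. Regions of 10 kb or more numbered 1690 and made up 30.9% of the covered length, and 37 reached 50 kb. When regions were joined across gaps of up to just over 12 kb, the distance commonly allowed in defining clustered enhancers, PDE4D stayed first with 230 kb in 6 parts. The locus of MTUS1, FGL1 and PCM1 followed with 173 kb, that of the keratin genes KRT80, KRT7 and KRT86 with 150 kb, and that of KRT8 and KRT18 with 144 kb. A joined domain of 139 kb in 10 parts held no coding start and had MYC as its nearest gene. Of the 20 longest joined domains 7 held 1 of the 20 widest single regions. Counted per coding gene, PDE4D, a cyclic AMP phosphodiesterase, held the most regions, 29 over 1553 kb. PARD3, a polarity scaffold, followed with 23 and RAD51B, a recombination factor, with 21. PTPRM held 18, DST, AHR, THSD4 and MACROD2 17 each, BMPR1B 16 and LPP 15. All 3 lists had a peak in a merged region holding a start for each of these 10 genes except MACROD2. MACROD2 had a start in 0 lists.

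Whether promoters or distal sites carry the mark was asked by sorting regions by the annotated starts they hold. A start of a coding transcript lay in 8139 regions, or 35.2%, and only a lncRNA start in 1361, or 5.88%. The other 13654, or 59.0%, held no start, of which 6326 were intergenic, 4830 intronic and 2498 touched a coding exon. Covered length was split alike, with 33.1% in regions with a coding start and 57.6% in those without any start. Regions without a start lay a median of 37.2 kb from the nearest coding start, and 24.8% lay over 100 kb away. Their median strength changed little with distance, from 55.6 within 5 kb to 55.5 beyond 100 kb. The coding start share depended on how many lists called a region, at 15.6% of regions called in 2 lists and 6.84% of those called in 1. Within the single lists of replicates 1, 2 and 3, a coding start lay in 25.2%, 24.8% and 24.6% of peaks, or 24.9 ± 0.269% (SD, n = 3). The 35.2% thus holds for regions called in all 3 lists.

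Regions with a coding start had median percentiles of 62.4, 69.5 and 78.5 in replicates 1, 2 and 3, against 48.8, 59.8 and 64.5 for regions without any start. The difference was 12.4 ± 2.35 points (SD, n = 3), higher with a coding start in 3 of 3 libraries, with p = 0.25 in an exact two-sided paired permutation test, the smallest p that 3 libraries allow. It was -1.81 points when only peaks with a q-value of at most 1e-05 were kept. The length that a library's own peaks covered differed by -0.148, -0.336 and -0.498 kb between the same classes, or -0.327 ± 0.175 kb (SD, n = 3), less with a coding start in 3 of 3 libraries (same exact permutation test, p = 0.25). Without replicate 1 the percentile difference was 21.5 and the length difference -0.0148 kb.

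Regions holding only a lncRNA start had the highest median percentiles of the classes, 69.0, 76.0 and 79.8, and the largest median width, 3.94 kb against 2.23 kb with a coding start. Intronic regions had the lowest, 44.6, 54.9 and 60.8. The share with a coding start went from 8.98% in the weakest of 10 equal bins to 47.5% in bin 8 and 33.2% in the strongest. Ranked by width, it was 46.5% in bin 2, 24.3% in bin 9 and 30.4% in the widest.

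**Figure D3:**
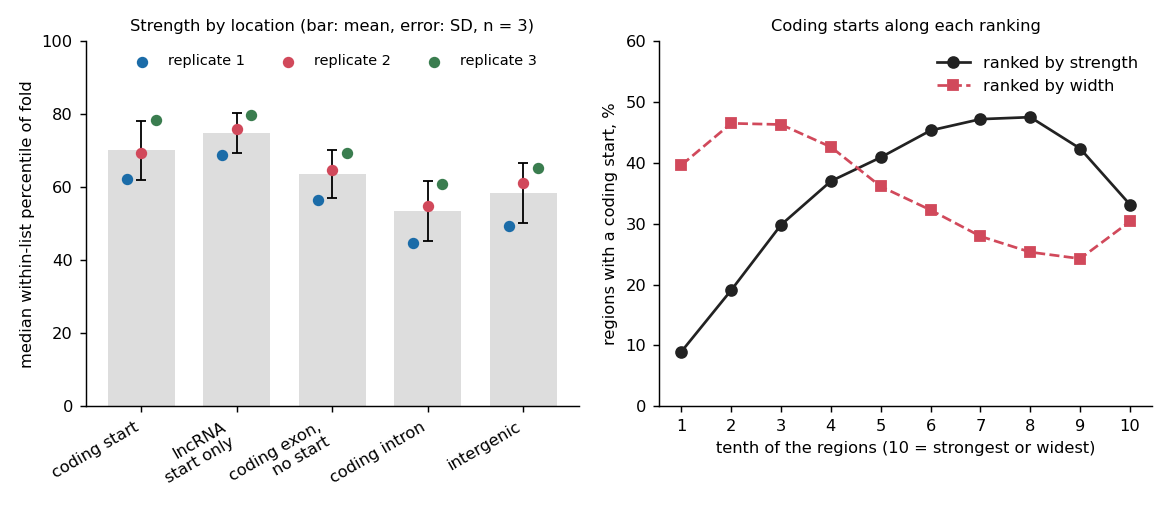
Left, median within-list percentile of fold enrichment by location class, with a point for each control siRNA library and the mean with SD (n = 3). Right, share of regions with a coding start (y axis, %) in 10 equal bins of the regions ranked by strength or by width, which goes from 8.98% to 47.5% and back to 33.2% along strength.

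Of 20163 coding genes, 8868 had a start in a region called in all 3 lists, or 44.0%. Since a merged region can be longer than the peaks of 1 list, the start itself lay inside a peak of every list for 36.3% of coding genes, a setting chosen after the data were seen. A gene was called silent where no list had a peak in the gene or within 20 kb, which held for 3843 coding genes, or 19.1%. Silence thus means a lack of peaks. The authors dropped reads of low mapping quality, which can leave genes with near-identical copies without peaks, and the part of this filter was not tested. Genes with a called start had a median strength of 70.7, and 544, or 6.13%, reached 95. The gene groups that follow are set beside these values. The lists and their members were chosen with earlier results of these data known, so their counts are a description.

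Promoter sequence was read for 19862 coding genes, 98.5% of all, and 42.5% of these had their canonical start in a region called in all 3 lists. Called promoters had a median of 27 CpG in 300 bases, and those called in 1 or 2 lists had 28. The median was 11 in those called in 0 lists and 8 in those also without a peak within 20 kb. Of promoters with fewer than 5 CpG 7.65% were called, and of those with 20 to 29 CpG 59.8%. Among called promoters, 17.9% with fewer than 5 CpG reached a strength of 95, as did 18.5% with at least 5 but fewer than 10. The share was 3.71% with 20 to 29 CpG and 4.13% with 30 or more. Called promoters with a strength of 95 or more had a median of 23 CpG, the same as all promoters. Fewer than 5 CpG were found in 9.38% of them, in 2.77% of all called promoters and in 15.4% of all promoters. The 234 called with fewer than 5 CpG lay in regions of median width 4.63 kb, against 1.98 kb with 20 to 29 CpG. Strength uses the highest fold of the peaks in a region, and that peak can lie away from the promoter. The TATAAA motif was read on both strands. It stood in 15.4% of called promoters with a strength of 95 or more, in 5.48% of all called promoters and in 9.63% of all promoters. Promoters called in 0 lists had it in 14.5% of cases, and those also without a peak within 20 kb in 18.99%. The motif was thus not particular to the strongest promoters.

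**Figure D4:**
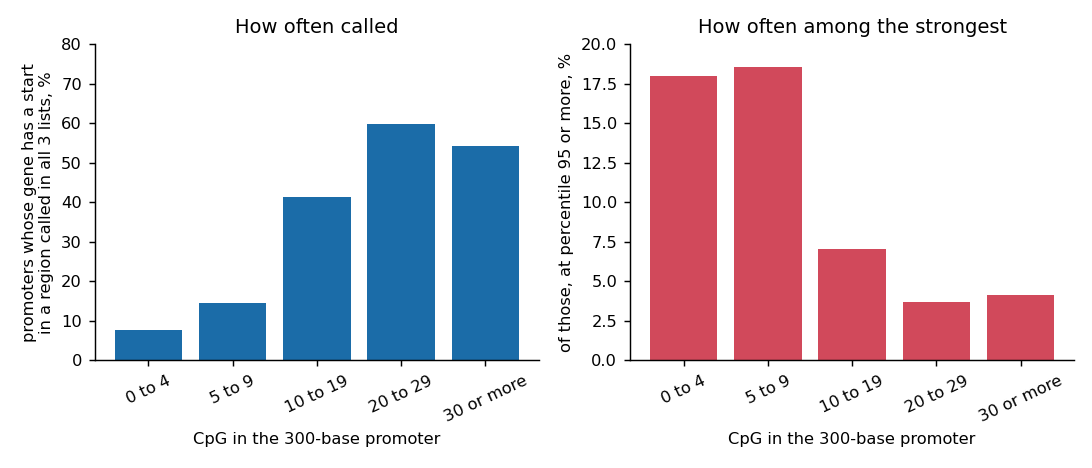
Coding promoters grouped by the number of CpG in 300 bases around the canonical start (x axis), with the share called in all 3 control siRNA lists on the left and the share of the called with a strength of 95 or more on the right. From the lowest group to that of 20 to 29 CpG the left share goes from 7.65% to 59.8% and the right one from 17.9% to 3.71%.

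In the central 1 kb of regions, TGANTCA (AP-1, both strands) stood in 53.2% of those without any start, in 18.3% of those with a coding start and in 27.9% of 283546 windows of 1 kb taken every 10 kb along the genome. Its share was 43.6% in regions without a start and with a strength of 95 or more, and 34.2% in those at least 10 kb wide. TGACNNNGC (NRF2) stood in 38.02% without a start, 35.6% with a coding start and 26.4% of the genome windows. TGTTTAC (forkhead factors such as FOXA1) stood in 19.1%, 8.98% and 14.9%. TTGCNNAA (C/EBP factors) stood in 46.97%, 28.4% and 43.8%, and GGAATG (TEAD factors) in 48.4%, 36.7% and 42.7%. The AP-1 letters thus had the widest gap to the genome windows among these motifs in regions without a start.

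Regions with a coding start held other letters. CCGGAAG (ETS factors) stood in 27.3% of them, in 3.76% of regions without a start and in 2.33% of genome windows. GGGCGG (SP and KLF factors) stood in 76.04%, 17.2% and 11.9%. Base composition moved with these shares, with a median G and C content of 59.4% with a coding start, 42.6% without any start and 39.9% in genome windows, and its part in them was not tested.

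NRF2 is known to switch on genes that detoxify oxidants and electrophiles, and all 34 of its target genes listed had a start in a region called in all 3 lists, beside 44.0% of all coding genes. A strength of 95 was reached by 18 of them, with a list median of 95.5 beside 70.7 over all called genes. Over all settings tried 30 to 34 were called. This list too was chosen with earlier results of these data known, so its count and median are a description and not a test. ABCC2 and ALDH3A1 led the list, followed by GCLC, the catalytic subunit of the enzyme that starts glutathione synthesis, with 18.2, 19.4 and 23.4-fold. SQSTM1, the autophagy receptor p62, had 17.3, 17.7 and 23.7-fold. FTL, the light chain of the iron store ferritin, had 15.3, 18.3 and 21.5-fold.

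TXNRD1, thioredoxin reductase, had 15.6, 15.3 and 20.1-fold, and NQO1, a quinone reductase, had 15.005, 15.1 and 19.97-fold. SLC7A11, the cystine importer, had the widest region of the list, 46.2 kb, with 12.9, 11.5 and 14.1-fold. HMOX1, heme oxygenase, stood lower at 87.2 and GCLM, the modifier subunit that pairs with GCLC, at 77.9. AKR1C1 was the weakest at 62.98 with 4.47, 4.88 and 5.31-fold. It is nearly identical to AKR1C2, which stood at 94.4, and the authors dropped reads of low mapping quality, so its value is uncertain.

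**Figure D5:**
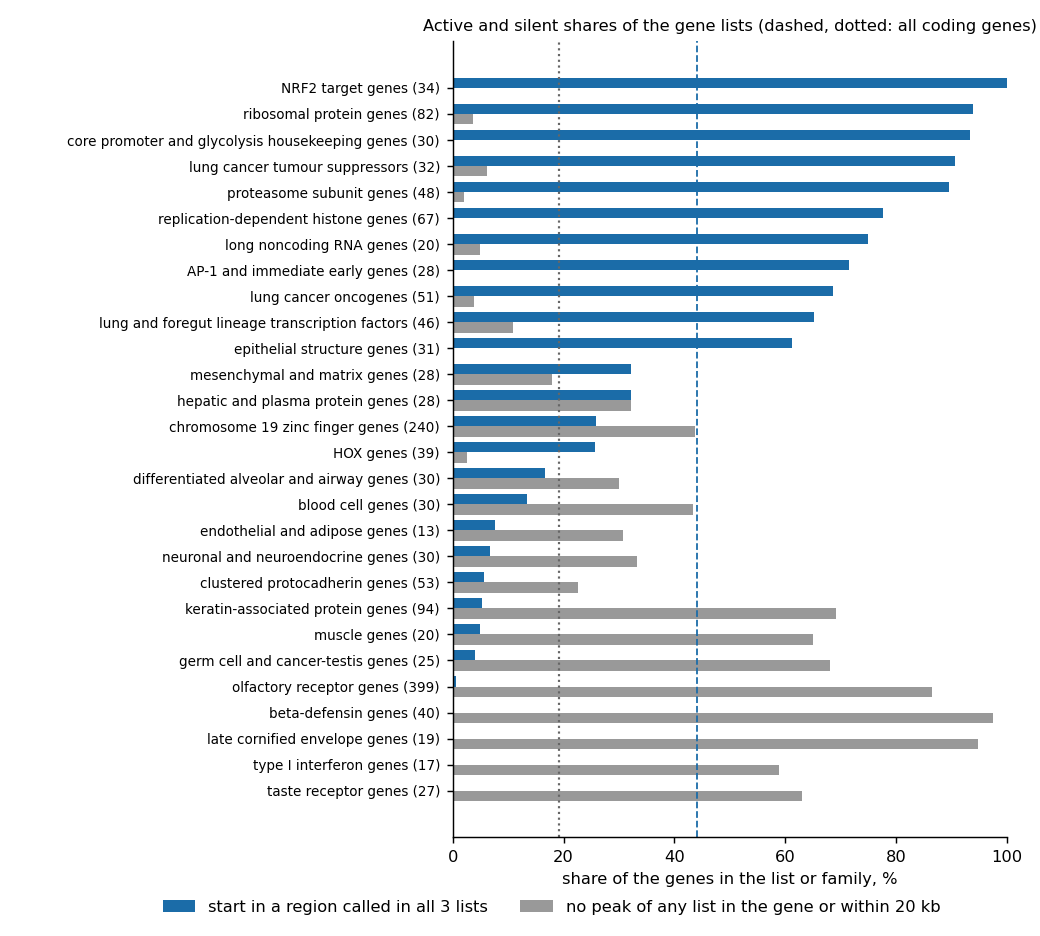
Share of each gene list or family (x axis, %; number of genes in brackets) with a start in a region called in all 3 control siRNA lists (blue) and without a peak of any list in the gene or within 20 kb (grey), with dashed and dotted lines for all coding genes at 44.0% and 19.1% and none for all lncRNA genes, of which 19.2% were called. The NRF2 target genes are at 100% called, and olfactory receptor, beta-defensin and late cornified envelope genes have the longest grey bars.

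Housekeeping genes were called in 28 of 30 cases, with a median strength of 92.4. Among the strongest were the glycolysis genes GAPDH, with 13.7, 15.5 and 20.2-fold, and ALDOA, with 12.3, 15.1 and 24.2-fold. SDHA was called by replicates 2 and 3 and HPRT1 by replicate 3. Ribosomal protein genes were called in 77 of 82 cases with a median of 74.6, and RPL4, with 10.8, 12.4 and 16.3-fold, was the 1 member to reach 95. Proteasome subunit genes, led by PSMC5 at 93.1, were called in 43 of 48 cases with a median of 73.95. Both families thus had about the median strength of all called genes.

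Replication-dependent histone genes, which package new DNA in S phase, were called in 52 of 67 cases with a median strength of 94.96 and a median region width of 23.8 kb, beside 2.40 kb for ribosomal protein genes. Neighbouring genes share a region, so these members are not independent. The region of H2AC6 and H2BC4 had 13.8, 15.5 and 21.4-fold. The one that holds H1-2, H2AC4, H2BC3 and H3C1 was 42.9 kb wide with 15.3, 12.7 and 16.9-fold. The other 15 were called in 0 lists, and all of them had a shared region within 20 kb. Copies alike in sequence can lose reads to the mapping filter, and its part was not tested.

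Lineage factors of lung and foregut were called in 30 of 46 cases, or 65.2%, with 22 to 32 over all settings. The list as drawn also holds ID1, the inhibitor of basic helix-loop-helix factors named above, which led it. Its relative ID3 had 12.8, 12.99 and 17.7-fold. The epithelial ETS factors EHF and ELF3 had wide regions of 41.5 kb and 64.2 kb. Among factors that open chromatin in foregut endoderm, FOXA2 stood at 85.4 with 5.79, 7.48 and 11.6-fold, FOXA1 at 79.6 and GATA6 at 41.4. FOXP2 was the weakest called, at 15.8.

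NKX2-1, the master factor of lung epithelium, was silent. So were ISL1, PDX1, PROX1 and TBX5. CDX2, ELF5, FOXP4, GATA4, GRHL1, GRHL2, TBX2 and TBX4 had a start in 0 lists but a peak in or near the gene. CEBPA, a differentiation factor, was called by replicates 2 and 3 and SOX17 by replicates 1 and 3.

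Genes of differentiated alveolar and airway cells were called in 5 of 30 cases, or 16.7%. MUC5AC, a gel-forming airway mucin, had the strongest region after the first 20, with 19.6, 19.9 and 25.8-fold. MUC5B, another gel-forming mucin, had 10.9, 12.4 and 20.4-fold. CAV1, a caveola protein, stood at 90.3, MUC1, a surface mucin, at 78.2 and KRT15, a basal cell keratin, at 54.9. No surfactant protein gene had a start in any list, and SFTPA1 and SFTPA2, which are nearly identical copies, were silent.

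SFTPB, SFTPC and SFTPD had a start in 0 lists, as did LAMP3, NAPSA and SLC34A2 of alveolar type II cells and AGER, AQP5, HOPX and RTKN2 of type I cells. The same held for SCGB1A1, BPIFB1, FOXJ1, KRT5 and CFTR of the airway. CFTR, a chloride channel, nevertheless had 9 shared regions in the gene or within 20 kb. Such regions numbered 3 each for SFTPC, NAPSA and AGER and 2 each for SFTPB, AQP5 and RTKN2. HOPX, SLC34A2 and KRT5 had 1 each, and SFTPD, LAMP3, SCGB1A1, BPIFB1 and FOXJ1 had 0. PDPN, SCGB3A1, SCGB3A2, BPIFA1, TPPP3, DNAI1 and NGFR were silent, and ABCA3 was called by replicates 2 and 3. Of the alveolar markers named here CAV1 was therefore called at a start in all 3 lists and ABCA3 in 2, and the surfactant protein genes in 0.

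Epithelial structure genes were called in 19 of 31 cases. KRT8, a keratin of simple epithelia, had 18.1, 22.8 and 21.8-fold, and its partner KRT18 had 12.496, 12.52 and 15.9-fold. EPCAM, an adhesion molecule of carcinoma cells, had 10.8, 13.4 and 16.02-fold, and CDH1, which codes for E-cadherin, had 8.69, 11.5 and 14.4-fold. CDCP1, CLDN3, ESRP1, KRT19, OVOL1, RAB25 and ST14 were called at a start in 0 lists, although each had a shared region in the gene or within 20 kb. CD24 is not in the annotation used.

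Mesenchymal and matrix genes were called in 9 of 28 cases, or 32.1%, beside 44.0% of all coding genes. S100A4, a calcium-binding protein of motile cells, led with 8.86, 11.3 and 13.9-fold. VIM, which codes for vimentin, had 6.79, 9.94 and 15.6-fold, and TGFBI, a matrix protein, had 9.82, 8.55 and 10.3-fold. ZEB1, a repressor of CDH1, stood at 77.2. CDH2, COL1A2, COL3A1, COL5A1, MMP2, PDGFRB and TAGLN were called in 0 lists, and PDGFRA, POSTN, PRRX1, SPARC and THY1 were silent. The count was 13 without replicate 1.

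Hepatic and plasma protein genes were called in 9 of 28 cases. FGL1, a secreted liver protein, had 13.5, 17.2 and 21.1-fold over 31.7 kb. ALDH1A1 stood at 98.6 by its best region over a start, and F2, the prothrombin gene, at 90.1. CPS1, the first enzyme of the urea cycle, had a region of 40.7 kb, and the fibrinogen genes FGA, FGB and FGG stood at 88.5, 73.7 and 64.7. AFP, ALB, APOA2, CYP3A4, HPX, TAT and TF were called in 0 lists, and APOA1, APOB, APOC3, CYP7A1, F9, HP, ORM1, SERPINC1 and TTR were silent.

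Oncogenes of lung cancer were called in 35 of 51 cases, or 68.6%, with 22 to 37 over all settings. After SRC came NFE2L2, which codes for NRF2 itself, with 12.49, 13.4 and 16.3-fold, and BCL2L1, a survival gene, with 12.3, 12.4 and 16.9-fold. IGF1R, a growth factor receptor, had the widest region of the list, 58.6 kb. The MYC start lay in a region of 14.3 kb with 7.13, 7.17 and 11.5-fold, and EGFR stood near the median of all called genes at 69.8. NRAS, HRAS and BRAF stood at 58.1, 48.9 and 57.9.

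NOTCH2 was called at a start by replicate 3 alone, and CTNNB1 and ROS1 by replicates 2 and 3. ALK, CCND2, CCNE1, FGFR2, FGFR3, MYCL, MYCN, NOTCH3 and RET were called at a start in 0 lists. Regions away from a start do not enter this count, and the study describes an acetylated enhancer upstream of NOTCH3 in A549 cells. TERT, the catalytic subunit of telomerase, was silent.

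Tumour suppressor genes were called in 29 of 32 cases, with 18 to 30 over all settings. KEAP1, the adaptor that sends NRF2 to degradation, was the strongest with 9.13, 11.9 and 19.8-fold. STK11, the kinase LKB1, followed with 9.76, 10.8 and 15.4-fold, then CDKN1B, a cyclin kinase inhibitor, with 8.52, 9.81 and 15.2-fold. RB1 stood at 73.8. NF1 was called by replicates 2 and 3.

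CDKN2A and CDKN2B, which code for the cell cycle inhibitors p16 and p15, were silent. With part of MTAP they lay in a stretch of 297 kb without a peak of any list, chr9:21832113-22129043, which ranked 1651 by length among 43981 such stretches. A549 is known to lack CDKN2A by homozygous deletion, and in peak lists absent DNA and DNA without acetylation cannot be told apart. The ninth strongest region, chr9:21674093-21691651, lay on the same chromosome, 111 kb from the MTAP start, with 19.5, 23.6 and 32.3-fold.

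AP-1 and immediate early genes were called in 20 of 28 cases. DUSP6, a phosphatase of ERK, had 12.03, 14.6 and 23.4-fold, and IER3, a stress response gene, had 12.49, 13.5 and 16.4-fold over 51.3 kb. MAFK, a small MAF partner of NRF2, stood at 96.3 over 42.7 kb. Of the AP-1 subunits, FOSL2 stood at 95.6, FOSL1 at 91.3, JUND at 90.97, FOS at 84.2, JUNB at 81.6 and JUN at 61.8. BATF, EGR1, EGR2, EGR3, FOSB and KLF2 were called in 0 lists.

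Of the listed lncRNA genes 15 of 20 were called, beside 19.2% of all 18702 lncRNA genes annotated. MIR22HG, the host of miR-22, led with 15.7, 14.7 and 19.6-fold. MALAT1, a nuclear speckle RNA, had 12.9, 16.04 and 22.5-fold over 44.4 kb, and MIR31HG, the host of miR-31, had 13.4, 15.3 and 20.5-fold over 52.5 kb. PVT1, beside MYC, stood at 93.3 and had 19 shared regions in the gene or within 20 kb. H19, HOTAIR and UCA1 were called in 0 lists, and MEG3 was silent.

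Of 3049 annotated miRNA genes 228 overlapped a shared region. MIR21, which makes an abundant miRNA of tumours, lay in the thirteenth strongest region, chr17:57897478-57938872, with 18.9, 22.9 and 31.1-fold. MIR23A and MIR27A shared a region of 29.7 kb with 11.8, 12.6 and 19.01-fold, and MIR193B and MIR365A shared one of 13.03 kb with 10.3, 13.9 and 19.9-fold. A single mature arm of each locus is shown from RefSeq (GRCh38.p14) with the seed, bases 2 to 8, in capitals, to show what the acetylated loci encode.
hsa-miR-21-5p: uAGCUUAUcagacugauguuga
hsa-miR-23a-3p: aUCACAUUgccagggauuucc
hsa-miR-27a-3p: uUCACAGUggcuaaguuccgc
hsa-miR-193b-3p: aACUGGCCcucaaagucccgcu
hsa-miR-365a-3p: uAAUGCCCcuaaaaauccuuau
The 5 seeds differ from each other. Acetylation at a miRNA gene does not measure the miRNA.

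Genes of further lineages were also counted. They stand beside 9 of 28 hepatic and plasma protein genes and 5 of 30 differentiated alveolar and airway genes called, and the identity of the cells was not tested. Muscle genes were called in 1 of 20 cases, germ cell and cancer-testis genes in 1 of 25, neuronal genes in 2 of 30, blood cell genes in 4 of 30 and endothelial and adipose genes in 1 of 13. The called ones were NKX2-5, a heart factor, at 54.05, ZP3, an egg coat gene, at 57.1, the synaptic genes SNAP25 and SYT1 at 80.1 and 75.2, and PLIN1, a lipid droplet gene, at 14.3. Those of blood were ELANE, CD22, CD68 and CD14, at 75.6, 74.1, 67.96 and 55.3. None of them reached 95. Over all settings the counts were 0 to 2 for muscle, 0 to 1 for germ cell, 1 to 3 for neuronal, 1 to 4 for blood cell and 0 to 1 for endothelial and adipose genes. Without replicate 1 muscle genes numbered 2 and endothelial and adipose genes 0.

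Silent members made up 13 of the 20 muscle genes, among them MYOD1, MYOG and MYH7, and 17 of the 25 germ cell genes, among them NANOG, DAZL and MAGEA1. They made up 13 of the 30 blood cell genes, among them HBB, MS4A1 and TAL1, and 10 of the 30 neuronal genes, among them NEUROG1, GAD1 and PAX6. Of 13 endothelial and adipose genes CLDN5, FABP4, KDR and TIE1 were silent, and PECAM1 is not in the annotation used. The share over all coding genes was 19.1%.

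Clustered gene families were silent to different degrees. Olfactory receptor genes were called in 2 of 399 cases, OR1F1 and OR51E2, and 345 were silent. Keratin-associated protein genes were called in 5 of 94 cases, led by KRTAP3-1 at 87.5, and 65 were silent. Beta-defensin, late cornified envelope, taste receptor and type I interferon genes were called in 0 cases, with 39 of 40, 18 of 19, 17 of 27 and 10 of 17 silent. The limit that the mapping filter sets on genes with near-identical copies applies to such families. Of the chromosome 19 zinc finger genes 62 of 240 were called, led by ZNF524 at 88.01, and 105 were silent. Clustered protocadherin genes were called in 3 of 53 cases, led by PCDHAC2.

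HOX genes, which give cells their position along the body axis, were called in 10 of 39 cases. HOXB6 had 10.2, 14.1 and 19.8-fold, HOXA3 had 11.6, 11.8 and 17.4-fold and HOXB7 had 9.41, 11.5 and 17.6-fold. HOXC4 stood at 76.4. HOXD3, HOXD4, HOXD9, HOXD10, HOXD11, HOXD12 and HOXD13 of the D cluster were called in 0 lists, HOXD8 was called by replicates 2 and 3, and HOXD1 was silent.

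The longest stretch without a peak of any list, assembly gaps left out, was chrX:88147859-93655482, 5.51 Mb with TGIF2LX, PABPC5, PCDH11X, NAP1L3 and FAM133A. The second, chr4:130966549-136303231, spanned 5.34 Mb with PCDH10, a protocadherin of neurons, and PABPC4L. Next was chr13:53227855-58215546, 4.99 Mb, with OLFM4, PCDH8, CNMD and 5 near-identical PRR20 genes. The other 7 of the 10 longest held ADGRB3, ELAVL2, IZUMO3, TUSC1, SPANXN1, SLITRK2, TMEM257, CXorf51A, CXorf51B, PCDH19, TNMD and RBFOX1, or no coding gene. Stretches of 1 Mb or more numbered 219 and held 366 Mb and 462 coding genes. The stretch with the most coding genes, 51, was 1.90 Mb of olfactory receptor genes at chr11:54694206-56594284. The strongest region of all lay beyond its end on the same chromosome.

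By chromosome, regions covered 5.84% of chromosome 17, the most, then 5.54% of 22 and 5.45% of 19, against 2.00% of 13 and 1.60% of X. Over 23 chromosomes the covered share and the density of coding genes had a Spearman's rho of 0.794, a description, since the chromosomes share the 3 libraries. Chromosome 19 had the highest share of regions with a coding start, 58.3%, and chromosome 18 the lowest, 26.1%.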

How the data were processed

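H3K27ac ChIP-seq (antibody MABI0309) of A549 cells 48 h after control siRNA transfection was taken from 3 deposited broad peak lists, 1 per library. According to the submitters' processing notes and methods, reads were trimmed with cutadapt 1.15, aligned to hg19 with Bowtie2 2.2.6, filtered for mapping quality with SAMtools, and peaks were called per library with MACS2 2.1.0.20151222. The deposited fold enrichment is a ratio over the peak caller's background, and the deposited −log10 p-value and −log10 q-value are those of the peak. Whether an input library served as background is not given in the sources used here, and the 2 input samples and the 3 knockdown lists were not analysed here. The lists hold no read counts, so no interval for counting error is given, and the study's notes put replicate 1 well below the others in mapped reads. According to the methods an ENCODE blacklist was also applied to the peaks.

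Peaks overlapping by 1 bp or more were merged and regions with a peak of every list kept. A region's value in a library was the highest fold of its peaks, turned into a percentile of the whole list, and strength was the mean over libraries. Peak ends were checked against 24 chromosomes of GRCh37, and 0 lay past an end. Starts came from GENCODE v44 lifted to GRCh37 (70768 coding starts of 20163 genes). Python 3.11.15, numpy 2.4.6, pandas 2.3.3, scipy 1.17.1, pysam 0.24.0 and matplotlib 3.10.9 were used. Merging was tested on simulated peaks. Location classes were compared over libraries by an exact paired permutation test. No set test was run, and gene lists are given as counts beside the share of all coding genes.

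Named regions and genes are the 20 strongest and 20 widest regions, the 10 strongest and 10 widest without a start, the 10 longest stretches without a peak, the 10 genes with most regions, and for each of 16 lists and 12 families the strongest 3 members and those called in 0 libraries; further list members, stretches and loci were named after their values were seen. For families too long to name, members in 0 libraries are given as counts. Some members that this rule selects are counted in their lists but not reported here. The members, lists and alternatives were chosen with earlier results of these data known. The pattern that finds histone genes was widened to current symbols after a first look at the data. Counts with the start inside a peak of every list were added after seeing the data.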

Additional observations from a re-analysis of the deposited data

How the results depend on the processing

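The share of regions with a coding start, 35.2% as reported, was 29.7% with regions called in 2 of 3 libraries, 42.0% with peaks at a q-value of at most 1e-05, 38.2% with equal list lengths of 27941 peaks, 36.6% with a start within 1 kb, and 30.3% to 33.9% when 1 library was left out. The rank correlation of strength and width, 0.554 as reported, was 0.607 with 2 of 3 libraries, 0.483 with the stricter q-value, 0.528 with equal list lengths, 0.525 with a length-weighted mean fold, and 0.570 to 0.604 when 1 library was left out. The stricter q-value also left 10779 regions over 66.5 Mb and 25.4% of coding genes, since it keeps fewer peaks, and it turned the percentile difference between regions with a coding start and those without from 12.4 to -1.81 points (exact permutation p = 0.5); the cause was not tested. Silent coding genes numbered 1421 within 100 kb, a distance that fewer genes can meet. Leaving out 1 library gave 24263 to 31010 regions, 80.6 to 108 Mb, 41.8% to 50.03% of coding genes, 3893 to 4668 silent genes, 232 to 256 called list members beside 242, percentile differences of 12.8 to 21.5 and length differences of -0.218 to -0.0148 kb. The length difference was near 0 without replicate 1, which is also the value within the 2 libraries whose peak names share a format, and -0.0065 kb with 2 of 3 libraries, while it was -1.36 kb with the stricter q-value and -0.587 kb with equal list lengths, beside -0.327 kb as reported. The percentile difference was 20.2 with 2 of 3 libraries and 6.85 with equal list lengths. The other alternatives run kept the direction of both differences, for which 3 libraries cannot pass the threshold under any setting, and left the numbers of regions, of silent genes and of called members over all lists within 1.5 times of those reported. Single lists moved more: with the stricter q-value called blood cell genes went from 4 to 1, oncogenes from 35 to 22 and tumour suppressor genes from 29 to 18, and the muscle, neuronal, germ cell, and endothelial and adipose lists, of 1 or 2 called genes, moved by 1 under at least 1 setting. Between groups, no paired analysis was possible because a single group of 3 libraries was used; the permutation test of location classes pairs values within a library. Less can be said of weak regions, as 7805 of the 9003 regions called in 2 lists lacked a peak in the shortest list. That list is of the least deeply sequenced library, whose peak names also differ in format, and the part of depth was not tested.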
